A study of Mus musculus with 31 samples.

Results

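DNA replication and cell cycle genes were described in the RNA of mouse liver and skeletal muscle, 37 genes chosen by name. They comprised 16 S-phase genes (Mcm2, Mcm3, Mcm4, Mcm5, Mcm6, Mcm7, Cdc6, Cdt1, Cdc45, Gins1, Gins2, Pcna, Rrm1, Rrm2, Tk1 and Tyms), 16 mitotic genes (Ccna2, Ccnb1, Ccnb2, Cdk1, Mki67, Top2a, Birc5, Aurka, Aurkb, Plk1, Bub1, Bub1b, Cdc20, Ube2c, Tpx2 and Foxm1) and 5 G1 regulators (Ccnd1, Ccne1, Ccne2, E2f1 and Cdkn1a). All 37 were found through their Ensembl identifiers, among 35275 gene identifiers counted in one experiment and 54532 in the other.

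The study addressed the estrogen-related receptor α (ERRα, gene Esrra) in metabolism, with C57BL/6N mice on a normal diet. In the insulin experiment, WT and ERRα-/- males were fasted for 12 h, injected intraperitoneally with saline or insulin at 1 unit/kg, and livers were taken 4 h later. In the ERRα3SA experiment, liver and muscle (gastrocnemius and soleus) came from WT littermates and from mice with 3 ERRα serines replaced by alanine. The methods give male littermates of 2 to 3 months unless otherwise specified. The 8 groups were WT saline, WT insulin, ERRα-/- saline and ERRα-/- insulin livers, and WT littermate liver, ERRα3SA liver, WT muscle and ERRα3SA muscle. Each had 4 samples except ERRα-/- insulin, which had 3 (replicates 1, 2 and 4), giving 31 samples.

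Cells that enter the cycle first express G1 cyclins such as Ccnd1 and Ccne1, which act with their kinases to release E2F factors, while Cdkn1a encodes p21, an inhibitor of those kinases that p53 can induce. S-phase genes load and fire the MCM helicase at origins (Mcm2 to Mcm7, Cdc6, Cdt1, Cdc45, Gins1, Gins2), clamp the polymerase (Pcna) and supply deoxynucleotides (Rrm1, Rrm2, Tk1, Tyms), and mitotic genes such as Ccna2, Cdk1, Mki67 and Top2a follow late in the cycle. Adult hepatocytes rarely divide and nuclei of muscle fibres are postmitotic, so that RNA of these genes in whole tissue is low and may come from other cells.

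The targeted gene was read first as a check of the sample labels. Esrra stood at 32.3, 51.3, 42.7 and 40.5 CPM (counts scaled to library size) in WT saline livers and 53.7, 96.4, 56.1 and 59.0 CPM in WT insulin livers, beside 1.63, 0.703, 1.15 and 1.04 CPM in ERRα-/- saline and 0.833, 0.576 and 0.298 CPM in ERRα-/- insulin livers. In the ERRα3SA experiment Esrra was at 27.7, 27.1, 28.2 and 29.4 CPM in WT littermate liver, 29.4, 25.4, 21.1 and 19.2 CPM in ERRα3SA liver, 90.2, 82.6, 66.9 and 78.0 CPM in WT muscle and 24.3, 133, 127 and 94.5 CPM in ERRα3SA muscle. Every ERRα-/- library lay far below every WT library, and the knock-in, which changes codons only, had Esrra RNA in every library, with ERRα3SA muscle 1 the lowest of the muscles.

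The tissue labels were read from marker sums. In the muscle libraries, 6 muscle fibre genes summed to 105361, 105626, 111199 and 119197 CPM (WT) and 183791, 103858, 108944 and 81003 CPM (ERRα3SA), with Myh4 most abundant, while 6 hepatocyte genes summed to 16.3, 18.6, 17.2 and 11.6 CPM and 16.5, 10.1, 8.05 and 12.6 CPM. In WT littermate and ERRα3SA livers the hepatocyte genes, chiefly Alb, summed to 99585, 89475, 105377 and 86329.8 CPM and 102565, 88617, 101609.5 and 56155 CPM. The insulin-experiment livers had hepatocyte sums of 89257, 84793, 80095 and 90903 CPM (WT saline), 82197, 92448, 80160.4 and 89740.1 CPM (WT insulin), 100949, 78148, 101043 and 79939 CPM (ERRα-/- saline) and 102491, 102470.1 and 97583 CPM (ERRα-/- insulin). All libraries carried the RNA of the tissue on their label.

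Some libraries stood apart before any test. ERRα3SA muscle 4 had higher values than all 7 other muscle libraries for 32 of the 37 genes (86.5%), against 2694 of 14081 genes tested in muscle (19.1%). The sets are unlike, since the 37 include 11 genes with too few counts to be tested in muscle, all of them among the 32. ERRα3SA muscle 1 had 19.3% of its counts on mitochondrial genes, against 9.15% to 10.8% in the other muscle libraries, the lowest muscle Esrra and the highest muscle fibre sum. WT insulin 3 carried RNA of muscle fibres, with a sum of 109.9 CPM where the other livers of that group had 3.03, 0.340 and 0.237 CPM. Smaller muscle fibre sums were present in WT littermate liver 1 (14.9 CPM), ERRα3SA liver 3 (12.1 CPM) and ERRα-/- insulin 1 (9.89 CPM). ERRα3SA liver 4 had the lowest hepatocyte sum of any liver (56155 CPM) and, within its group, differed most from the others (chi-square per degree of freedom 152, 152 and 241, against 18.7 to 52.4 for pairs without it). WT insulin 2 had 1.88% of its counts on mitochondrial genes, against 3.88% to 4.17% in the other libraries of its group. Without ERRα3SA liver 4 the Cdkn1a difference of ERRα3SA liver was 0.97, and without WT insulin 2 that of insulin in WT liver was 3.57, in log2 units. All were kept, and results that change without one of them are given both ways.

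Total counts per library ran from 35871419 to 48317108 in the insulin experiment and from 20481405 to 33412022 in the ERRα3SA experiment, so that 3 counts equalled 0.0653 to 0.0851 CPM and 0.0957 to 0.169 CPM. These floors cover counting error only. A gene with a median count under 10 in a group was marked as having few counts there. Such genes numbered 9 in WT saline (Cdc6, Gins2, Ccnb1, Cdk1, Aurkb, Plk1, Bub1, Cdc20 and Ube2c), 5 in WT insulin (Cdc6, Gins2, Ccnb1, Plk1 and Bub1), 7 in ERRα-/- saline (Cdc6, Gins2, Cdk1, Aurkb, Plk1, Bub1 and Cdc20) and 8 in ERRα-/- insulin livers (Cdc6, Gins2, Ccna2, Ccnb1, Aurkb, Plk1, Bub1 and Cdc20). In the other experiment they numbered 6 in WT littermate liver (Cdc6, Ccnb1, Plk1, Bub1, Foxm1 and Ccne1) and 6 in ERRα3SA liver (Cdc6, Ccnb1, Aurkb, Plk1, Bub1 and Ccne1). Muscle had 12 in WT (Gins2, Ccna2, Ccnb1, Ccnb2, Cdk1, Birc5, Aurkb, Plk1, Bub1, Cdc20, Foxm1 and Ccne1) and 10 in ERRα3SA (Cdc6, Gins2, Ccnb1, Ccnb2, Cdk1, Birc5, Aurkb, Plk1, Bub1 and Foxm1). The variance of counts between replicates, in units of their mean, had a median over the 37 genes of 10.7, 9.98, 8.43 and 5.94 in the WT saline, WT insulin, ERRα-/- saline and ERRα-/- insulin livers. It was 3.22, 2.61, 2.0 and 38.1 in WT littermate liver, ERRα3SA liver, WT muscle and ERRα3SA muscle, by far the highest in ERRα3SA muscle. For the mitotic genes alone it was 0.809 in WT muscle and 1.29 in WT littermate liver, near the value of 1 that counting error gives, and elsewhere replicates varied by more.

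Levels per kilobase of exon were used to compare genes within a group. G1 regulators and Pcna led in the fasted livers. In WT saline livers the mean was 6.42 ± 2.05 CPM per kb for Ccnd1, 5.23 ± 0.868 for Pcna and 4.74 ± 2.76 for Cdkn1a (SD, n = 4), and Gins2 was lowest at 0.00309. Cdkn1a led in WT insulin livers at 50.5 ± 18.8 CPM per kb, before Pcna at 7.21 ± 0.758 and Ccnd1 at 2.58 ± 0.512. It also led in ERRα-/- livers, at 15.7 ± 8.41 CPM per kb with saline and 34.9 ± 7.46 with insulin (n = 3), where Ccnd1 was at 7.07 ± 2.36 and 2.05 ± 0.430. Pcna led in the ERRα3SA experiment, with 11.7 ± 0.428 CPM per kb in WT littermate liver, 10.9 ± 1.29 in ERRα3SA liver, 6.83 ± 0.143 in WT muscle and 7.32 ± 1.5 in ERRα3SA muscle (n = 4 each). The mitotic gene Aurka ranked high in WT muscle (3.33 ± 0.222), whereas the spindle checkpoint kinase gene Bub1 was lowest there (0.0108).

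Library strandedness was not stated, so counts on exons shared with an overlapping gene could not be assigned to a strand. Shared bases made up 67.3% of the exon bases of Gins2 (overlapped by Gse1, mean 21.8 CPM in WT muscle, where Gins2 had 1, 0, 1 and 3 counts), 23.4% of Ccnd1, 22.8% of Ube2c (overlapped by the muscle gene Tnnc2, counted at a mean of 0.671 CPM in WT muscle), 17.4% of Ccne2, 12.6% of Mcm7, 12.5% of Ccna2 and 7.68% of Cdkn1a. That value of Tnnc2 is far below the muscle fibre sums of the same libraries (105361 to 119197 CPM). It sets no limit on reads shared with Ube2c, whose levels in muscle are uncertain. Whether reads on shared bases were added to these genes or left out is not known. Rrm1 shares no exon bases, and its end lies 4376 bases from Stim1 on the same strand, itself counted at a mean of 251 CPM in WT muscle and 40 CPM in WT littermate liver; reads beyond the end of either gene were not examined. Reads of the pseudogenes Ccnb2-ps and Pcna-ps2 could be exchanged with their parent genes. Group means were at most 0.128 CPM for Pcna-ps2 but 0.540 to 1.11 CPM for Ccnb2-ps, which in WT muscle (mean 1.11 CPM) exceeded every value of Ccnb2 (0.0703, 0.0790, 0.189 and 0.153 CPM), so levels of Ccnb2 are uncertain.

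Promoter sequences, taken from RefSeq starts as 250 bases before to 50 bases after the start, were available for 28 of the 37 genes and not for Mcm4, Gins1, Gins2, Ccna2, Aurkb, Tpx2, Foxm1, Ccnd1 or Ccne2. Matches were sought on both strands. An E2F word (TTTCGCGC, TTTGGCGC or TTTCCCGC) was present in 6 of 14 S-phase promoters (42.9%; Cdc6, Cdt1, Mcm3, Mcm5, Mcm6 and Mcm7) and 1 of 12 mitotic promoters (8.33%; Cdk1), against 606 of 32851 promoters of all genes (1.84%). A cell cycle homology region word (CHR; TTTGAA or TTTAAA) was present in 11 of 12 mitotic promoters (91.7%, all but Bub1), 5 of 14 S-phase promoters (35.7%), 1 of 4 G1 promoters (25.0%, Ccne1) and 27.6% of all promoters. CCAAT was present in 91.7% of mitotic, 71.4% of S-phase and 37.4% of all promoters. Both words occurred together in 83.3% of mitotic, 28.6% of S-phase and 10.7% of all promoters. The first Cdkn1a start, in a search chosen after its sequence had been read, held a p53 word of 20 bases, with at most 1 mismatch, 51 bases before the start, a word held by 29 of all promoters (0.09%). A match describes the sequence and shows neither binding nor cause.

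Below are the promoters of Cdkn1a (first of 2 starts; the second, at chr17:29093519-29093818, held no p53 word), the G1 gene with the largest insulin difference in WT liver, and of Cdk1, Top2a and Mki67, mitotic genes followed in every group. Capitals mark the p53 word in Cdkn1a and the E2F, CHR and CCAAT words in the others. Positions in GRCm38.p6 are chr17:29090729-29091028 on the plus strand for Cdkn1a and, on the minus strand, chr10:69352863-69353162 for Cdk1, chr11:99024140-99024439 for Top2a and chr7:135716330-135716629 for Mki67.
Cdkn1a: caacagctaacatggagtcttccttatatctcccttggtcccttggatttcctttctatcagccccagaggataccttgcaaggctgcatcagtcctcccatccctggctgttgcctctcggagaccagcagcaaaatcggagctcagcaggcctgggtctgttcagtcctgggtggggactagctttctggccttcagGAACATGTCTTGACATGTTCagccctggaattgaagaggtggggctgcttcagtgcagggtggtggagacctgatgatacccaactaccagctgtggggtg
Cdk1: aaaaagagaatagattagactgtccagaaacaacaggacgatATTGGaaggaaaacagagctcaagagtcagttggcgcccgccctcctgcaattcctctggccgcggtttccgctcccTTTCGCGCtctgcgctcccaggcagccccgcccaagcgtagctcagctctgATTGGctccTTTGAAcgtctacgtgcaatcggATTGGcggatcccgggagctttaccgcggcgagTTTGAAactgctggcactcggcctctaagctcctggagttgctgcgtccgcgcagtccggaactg
Top2a: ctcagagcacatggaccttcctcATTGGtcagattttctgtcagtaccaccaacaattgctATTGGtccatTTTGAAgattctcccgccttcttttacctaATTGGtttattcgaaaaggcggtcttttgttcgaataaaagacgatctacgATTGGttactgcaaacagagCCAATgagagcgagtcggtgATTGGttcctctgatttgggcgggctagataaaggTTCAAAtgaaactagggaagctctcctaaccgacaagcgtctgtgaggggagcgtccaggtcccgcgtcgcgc
Mki67: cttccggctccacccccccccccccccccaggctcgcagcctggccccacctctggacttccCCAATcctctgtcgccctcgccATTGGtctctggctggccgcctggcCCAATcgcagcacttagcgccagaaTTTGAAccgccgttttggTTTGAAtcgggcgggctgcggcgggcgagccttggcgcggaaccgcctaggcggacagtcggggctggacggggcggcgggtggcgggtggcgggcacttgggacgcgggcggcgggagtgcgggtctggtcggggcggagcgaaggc

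The differences with insulin in WT liver that passed adjustment over all genes were in G1 regulators. RNA of the p21 gene Cdkn1a rose and RNA of cyclin D1 fell, while S-phase DEGs went both ways and 1 mitotic gene, Cdk1, was higher. No joint rise of the S-phase or mitotic genes was present 4 h after insulin. Of the 37 genes, 30 had enough counts to be tested, and 8 of them (26.7%) were differentially expressed (DEGs; unadjusted p under 0.05 in edgeR and a fold change of at least 1.2). Among all 13463 genes tested 17.2% were DEGs. The share of the cycle genes was higher than that of all genes but rests on 8 genes. Higher with insulin were 5 cycle genes, beside 8.34% of all genes, and lower were 3, beside 8.91%. At a p adjusted over all genes tested (Benjamini-Hochberg) under 0.05 there were 2 in edgeR, Cdkn1a and Ccnd1, beside 3.16% of all genes, and the same 2 in DESeq2. The median log2 fold change was -0.06 for the cycle genes and 0.00 for all genes.

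Cdkn1a stood at 10.5, 27.5, 22.6 and 6.77 CPM in WT saline and 268, 117, 142 and 192 CPM in WT insulin livers. Every insulin value was far above every saline value. It rose 10.7-fold (log2 fold change 3.41 ± 0.43, adjusted p = 0.00280, ± SE). Ccnd1, whose product opens the G1 program, stood at 35.7, 36.1, 33.3 and 15.9 against 11.8, 10, 15.6 and 11.1 CPM. It fell in all insulin livers, which did not overlap with saline livers although WT saline 4 lay near them (2.49-fold lower, log2 fold change -1.32 ± 0.25, adjusted p = 0.0183). Both calls held without any one library and at an adjusted p under 0.05, with log2 fold changes of 3.15 to 3.76 for Cdkn1a and -1.53 to -1.22 for Ccnd1 over all alternatives run. Without WT insulin 3, the library with muscle fibre RNA, they were 3.51 and -1.46.

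Among S-phase genes, the DNA clamp gene Pcna stood at 12.5, 9.76, 13.2 and 14.7 CPM in WT saline and 14.9, 17.0, 18.1 and 19.1 CPM in WT insulin livers. The groups met without overlap, and Pcna was 1.38-fold higher (log2 fold change 0.46 ± 0.16, adjusted p = 0.153). The helicase cofactor gene Cdc45 stood at 0.803, 0.467, 0.503 and 0.832 against 1.1, 3.09, 0.837 and 1.40 CPM, and the ribonucleotide reductase gene Rrm2 at 4.71, 4.56, 3.75 and 2.45 against 3.29, 8.05, 7.48 and 7.92 CPM. Cdc45 was higher in every insulin liver, most of all in WT insulin 2, and Rrm2 in all but WT insulin 1. Their log2 fold changes were 1.31 ± 0.50, adjusted p = 0.205, and 0.79 ± 0.31, adjusted p = 0.215.

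Thymidine kinase (Tk1) stood at 5.54, 4.32, 6.51 and 11.6 CPM with saline and 3.80, 2.78, 4.37 and 4.39 CPM with insulin, and the licensing factor gene Cdt1 at 5.28, 2.83, 4.11 and 3.88 against 0.903, 2.84, 2.37 and 3.01 CPM. Both groups of values overlapped, Tk1 being highest in WT saline 4 and Cdt1 lowest in WT insulin 1. Both genes were lower with insulin by the DEG rule (Tk1 -0.87 ± 0.30, adjusted p = 0.166; Cdt1 -0.82 ± 0.36, adjusted p = 0.269). The helicase gene Mcm2 stood at 2.10, 1.98, 3.45 and 2.22 against 2.82, 0.964, 2.13 and 2.82 CPM, with overlapping groups, and was not a DEG (-0.16 ± 0.37, adjusted p = 0.874). Summed over the 16 S-phase genes, the libraries gave 64.1, 52.4, 69.8 and 68.9 CPM with saline and 52.1, 69.0, 72.3 and 76.4 CPM with insulin.

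One mitotic gene was a DEG. The mitotic kinase gene Cdk1, with few counts in WT saline livers, stood at 0.104, 0.110, 0.617 and 0.254 against 0.372, 0.936, 0.741 and 1.1 CPM, overlapping through WT saline 3 (1.53 ± 0.69, adjusted p = 0.281). Ccna2 stood at 0.104, 1.13, 0.343 and 0.208 against 1.22, 0.567, 0.120 and 0.379 CPM. Mki67 stood at 0.984, 2.91, 1.53 and 1.76 against 1.27, 0.822, 1.2 and 1.35 CPM, and Top2a at 0.181, 1.62, 0.80 and 0.786 against 0.505, 1.47, 0.382 and 0.948 CPM. These 3 overlapped, with WT saline 2 the highest saline value in each, and were not DEGs, which does not show that they did not differ. Mitotic sums were 7.30, 15.5, 11.2 and 8.25 CPM with saline and 9.85, 14.3, 10.4 and 9.44 CPM with insulin.

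Several of these calls were lost when a library was left out. For Rrm2, Cdt1 and Cdk1 any of several libraries ended the call, often at a similar fold change. The call of Tk1 was lost without WT saline 4 (-0.51), and that of Cdc45 without WT saline 2 (1.18) or 3 (1.2) or WT insulin 2 (0.79), and with the replicate block (1.15). For Rrm2 it was lost without WT saline 3 (0.78) or 4 (0.62) or WT insulin 2 (0.69), 3 (0.73) or 4 (0.70), and with the replicate block (0.76). For Cdt1 it was lost without WT saline 1 (-0.66), 3 (-0.81) or 4 (-0.84) or WT insulin 1 (-0.56) or 3 (-0.84), and with the replicate block (-0.88). The call of Cdk1 was lost without WT saline 1 (1.26), 2 (1.28) or 4 (1.5) or WT insulin 2 (1.45), 3 (1.57) or 4 (1.31), and without a low-count filter (1.53) and with all groups in one fit (1.54), and without WT saline 3 its value was 2.32. The number of DEGs was 5 without WT saline 3, 4 without WT saline 4, and 5 without WT insulin 2 or without WT insulin 3. Not tested for low counts were 7 of the 37, with counts per library given here: Cdc6 (median 1, highest 13), Gins2 (median 2, highest 17), Ccnb1 (median 7, highest 28), Aurkb (median 6.5, highest 23), Plk1 (median 6.5, highest 12), Bub1 (median 5.5, highest 17) and Cdc20 (median 7, highest 36). Among these untested genes only Gins2 did not overlap, with counts of 0, 1, 0 and 1 in WT saline and 6, 17, 3 and 13 in WT insulin livers. Bulk RNA cannot tell a change in the share of cycling cells from a change of RNA per cell, and p-values measure the spread between these samples.

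**Figure D1:**
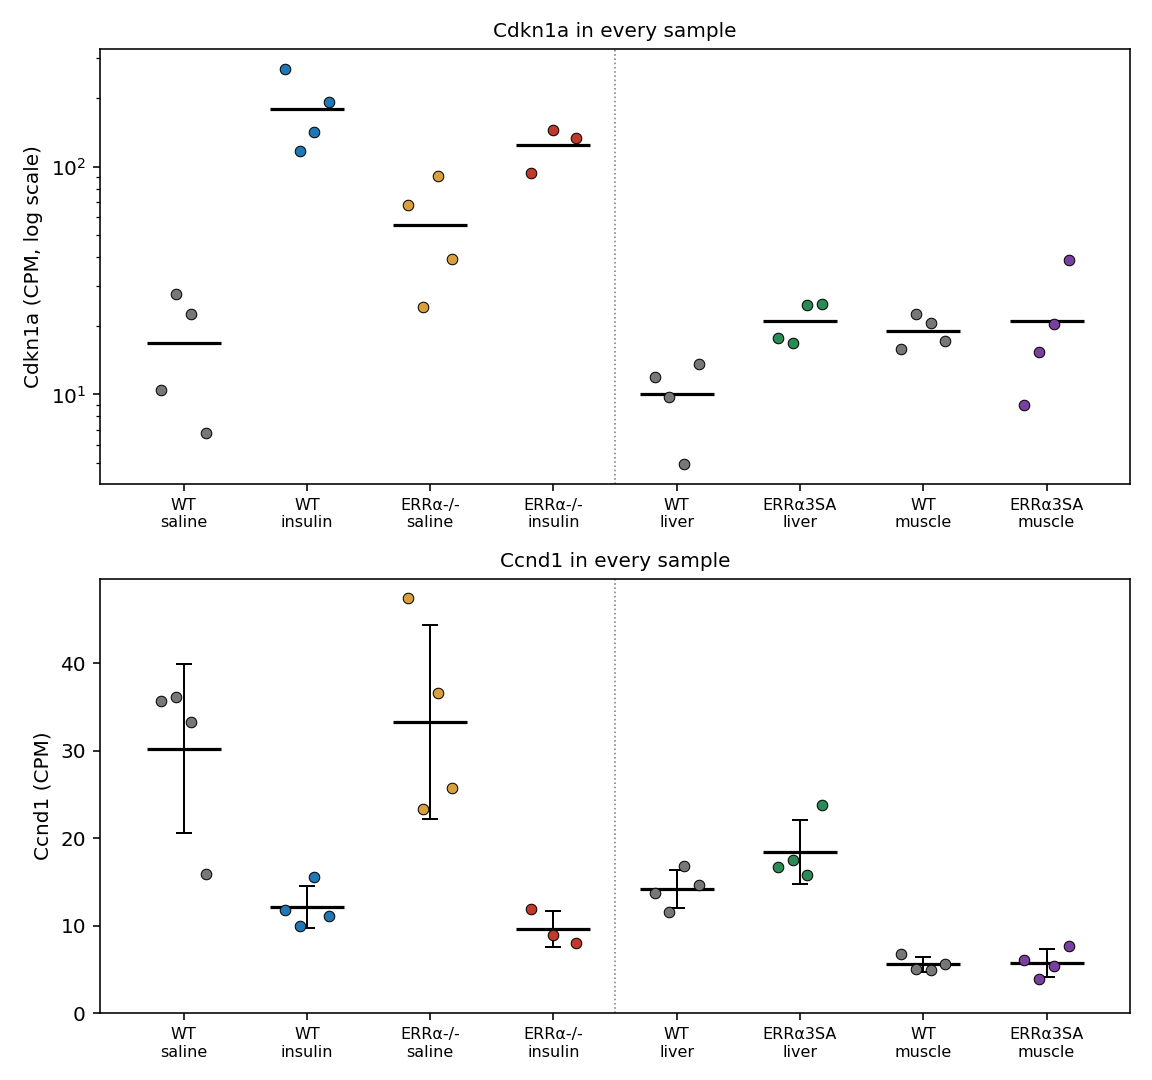
Cdkn1a (top, log scale) and Ccnd1 (bottom) in CPM in each of the 31 libraries, by group. Points are samples and lines group means; bars in the lower panel are SD.

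The same G1 pair differed with insulin in ERRα-/- livers, with a smaller Cdkn1a difference from a higher starting level. Ccnd1 again fell. By the DEG rule the S-phase gene Rrm2 and the mitotic genes Birc5 and Mki67 were higher, and the S-phase gene Gins1 was lower. Of 32 genes tested, 6 were DEGs (18.8%), near the 17.2% of all 13684 genes, so their number is not a result about cycle genes. They were 4 higher (8.05% of all genes) and 2 lower (9.14%), and 1, Ccnd1, had an adjusted p under 0.05 in edgeR (2.91% of all genes), whereas DESeq2 gave 2 (Birc5 and Ccnd1). Median log2 fold changes were 0.07 for the cycle genes and -0.02 for all genes.

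Ccnd1 stood at 47.5, 23.3, 36.6 and 25.7 CPM in ERRα-/- saline and 11.9, 8.97 and 8.03 CPM in ERRα-/- insulin livers. All insulin values were below all saline values, and Ccnd1 fell 3.46-fold (log2 fold change -1.79 ± 0.25, adjusted p = 0.00758). Cdkn1a stood at 68.1, 24.1, 91.1 and 39.3 against 94.2, 145 and 133 CPM. Insulin values were all higher, ERRα-/- insulin 1 only just above ERRα-/- saline 3 (2.22-fold, log2 fold change 1.15 ± 0.36, adjusted p = 0.119). Both calls held in every alternative fit, with log2 fold changes of -1.97 to -1.57 and 0.91 to 1.61, and at an adjusted p under 0.05 only that of Ccnd1 held, in both tools.

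In S-phase genes, Rrm2 stood at 3.59, 2.79, 2.96 and 3.13 CPM with saline and 3.51, 4.94 and 7.43 CPM with insulin, overlapping through ERRα-/- insulin 1 (0.76 ± 0.26, adjusted p = 0.159). The GINS subunit gene Gins1 stood at 2.99, 2.28, 3.74 and 2.15 against 2.08, 1.18 and 1.57 CPM, lower in every insulin liver but close to ERRα-/- saline 4 (-0.79 ± 0.32, adjusted p = 0.223). Mcm2 stood at 1.21, 1.79, 1.46 and 2.46 against 2.0, 1.84 and 2.60 CPM and Pcna at 15.6, 13.3, 14.3 and 17.2 against 15.9, 14.5 and 17.2 CPM. Both overlapped and were not DEGs. The S-phase sums were 58.8, 57.7, 65.6 and 69.7 CPM and 62.4, 55.7 and 62.9 CPM.

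In mitotic genes, the survivin gene Birc5 stood at 0.236, 0.315, 0.609 and 0.310 CPM with saline and 1.54, 0.768 and 1.17 CPM with insulin, and the proliferation marker Mki67 at 1.55, 1.55, 1.59 and 1.6 against 3.28, 2.99 and 2.09 CPM. Neither overlapped, and both were higher with insulin (Birc5 1.64 ± 0.53, adjusted p = 0.131; Mki67 0.82 ± 0.27, adjusted p = 0.137). Cyclin A2 (Ccna2, few counts with insulin) stood at 0.0262, 0.0485, 0.936 and 0.731 against 0.130, 0.247 and 0.570 CPM. Cdk1 (few counts with saline) stood at 0.131, 0.0970, 0.50 and 0.177 against 0.598, 0.0274 and 0.624 CPM, and the topoisomerase gene Top2a at 0.682, 0.533, 1.98 and 0.842 against 1.35, 0.549 and 1.28 CPM. These 3 overlapped and were not DEGs. The mitotic sums were 8.76, 11.1, 12.4 and 10.5 CPM and 14.6, 9.99 and 12.0 CPM.

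The call of Birc5 was lost without ERRα-/- insulin 1 (1.38), that of Mki67 without ERRα-/- insulin 1 (0.69) and that of Rrm2 without ERRα-/- insulin 4 (0.44). The call of Gins1 was lost without ERRα-/- saline 1 (-0.76) or 3 (-0.62) or ERRα-/- insulin 2 (-0.61) or 4 (-0.77), and with all groups in one fit (-0.79) and with the replicate block (-0.64). Not tested for low counts were Cdc6 (median 1, highest 4), Gins2 (median 2, highest 8), Aurkb (median 2, highest 5), Plk1 (median 1, highest 28) and Bub1 (median 4, highest 13).

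Loss of ERRα in saline-treated livers came with few DEGs among the cycle genes. By the DEG rule Cdkn1a was higher, and Cdt1, Ccne1 and Tyms were lower. Of 30 genes tested 4 were DEGs (13.3%), near the 11.3% of all 13481 genes, so their number is not a result about cycle genes. They were 1 higher (5.98% of all genes) and 3 lower (5.30%). At an adjusted p under 0.05 edgeR gave 0 (0.0816% of all genes), 4 had an unadjusted p under 0.05, and DESeq2 gave 1 (Cdt1, adjusted p = 0.0111). The medians were -0.05 for the cycle genes and 0.00 for all genes. The WT saline livers also serve the insulin comparison in WT, so the results share control samples.

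Cdkn1a stood at 10.5, 27.5, 22.6 and 6.77 CPM in WT saline and 68.1, 24.1, 91.1 and 39.3 CPM in ERRα-/- saline livers. ERRα-/- saline 1 and 3 were highest and ERRα-/- saline 2 lay within the WT range (3.31-fold, 1.72 ± 0.47, adjusted p = 0.214). Cyclin E1 (Ccne1) stood at 1.32, 2.01, 0.457 and 1.55 against 0.157, 0.485, 0.653 and 0.554 CPM, lower in ERRα-/- livers except for WT saline 3, which lay among them (-1.51 ± 0.56, adjusted p = 0.311). Cdt1 stood at 5.28, 2.83, 4.11 and 3.88 against 1.13, 2.11, 2.24 and 1.64 CPM. All ERRα-/- values were lower, 2.26-fold on average (-1.18 ± 0.29, adjusted p = 0.182).

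Thymidylate synthase (Tyms) stood at 6.29, 2.94, 2.90 and 4.51 CPM in WT saline and 2.60, 2.62, 2.46 and 2.73 CPM in ERRα-/- saline livers, lower in each ERRα-/- liver but close to WT saline 2 and 3 (-0.68 ± 0.27, adjusted p = 0.343). No mitotic gene was a DEG among 11 tested by edgeR, none had an unadjusted p under 0.05, and DESeq2 called none. The calls of Cdt1 (-1.31 to -1.01) and Cdkn1a (1.38 to 2.07) held in every alternative fit, and neither held at an adjusted p under 0.05 in edgeR. That of Ccne1 was lost without WT saline 2 (-1.25) or 4 (-1.43), and with the replicate block (-1.5). The call of Tyms was lost without WT saline 1 (-0.40) or 4 (-0.64) or ERRα-/- saline 1 (-0.68), 2 (-0.68) or 3 (-0.65), and with the replicate block (-0.60). Not tested were Cdc6 (median 2.5, highest 13), Gins2 (median 0, highest 4), Ccnb1 (median 8.5, highest 19), Cdk1 (median 6.5, highest 27), Aurkb (median 2.5, highest 9), Plk1 (median 5, highest 28) and Cdc20 (median 4, highest 17).

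With insulin, ERRα-/- livers had more Mki67 and less Ccne1 and Rrm1 RNA than WT livers. The DEGs were 3 of 32 genes tested (9.38%), near the 9.99% of all 13665 genes and so not a result about cycle genes, 1 higher (4.57% of all genes) and 2 lower (5.42%). By edgeR 0 had an adjusted p under 0.05 (0.0585% of all genes), 3 had an unadjusted p under 0.05, and DESeq2 gave 2 with an adjusted p under 0.05 (Ccne1 and Mki67). The medians were -0.18 and, for all genes, -0.02. These livers also serve the insulin comparisons.

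Ccne1 stood at 1.57, 2.55, 1.48 and 0.711 CPM in WT insulin and 0.234, 0.658 and 0.271 CPM in ERRα-/- insulin livers, and all ERRα-/- values were lower, 1 of them close to WT insulin 4 (4.08-fold lower, -2.03 ± 0.61, adjusted p = 0.279). Cdkn1a, at 268, 117, 142 and 192 against 94.2, 145 and 133 CPM, overlapped and was not a DEG in edgeR (-0.54 ± 0.27, adjusted p = 0.528), but DESeq2 called it lower, beside the same 3 genes as edgeR. The ribonucleotide reductase gene Rrm1 stood at 6.24, 8.48, 13.1 and 10.7 against 5.75, 4.64 and 5.64 CPM, lower without overlap (1.81-fold, -0.86 ± 0.26, adjusted p = 0.279). Mki67 stood at 1.27, 0.822, 1.2 and 1.35 against 3.28, 2.99 and 2.09 CPM, and each ERRα-/- value was above each WT value (2.38-fold higher, 1.25 ± 0.33, adjusted p = 0.215). The 3 calls held in every alternative fit, though none at an adjusted p under 0.05 in edgeR, at -2.64 to -1.69 for Ccne1, -1.02 to -0.65 for Rrm1 and 1.12 to 1.43 for Mki67. Without WT insulin 2, or without WT insulin 3, 5 genes were DEGs. Not tested were Cdc6 (median 1, highest 10), Gins2 (median 6, highest 17), Ccnb1 (median 6, highest 34), Plk1 (median 5, highest 13) and Bub1 (median 4, highest 10).

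The difference between genotypes in the insulin effect was tested by itself. Insulin raised Cdkn1a less in ERRα-/- than in WT livers, and Mki67 was a DEG with insulin in ERRα-/- livers only. Of 35 genes tested 3 were DEGs (8.57%), near the 8.79% of all 14670 genes and so not a result about cycle genes, 1 higher (4.04% of all genes) and 2 lower (4.75%). None had an adjusted p under 0.05 in edgeR (0% of all genes), 3 had an unadjusted p under 0.05, and DESeq2 gave 0 with an adjusted p under 0.05 and called 4, adding Birc5. The medians were -0.30 and, for all genes, -0.02.

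The interaction was -2.26 ± 0.62, adjusted p = 0.422 for Cdkn1a and 1.45 ± 0.47, adjusted p = 0.461 for Mki67, on the log2 scale with SE. The first was -2.60 to -1.91 and the second 1.12 to 1.64 over all alternative fits, in which both kept the call, and neither kept it at an adjusted p under 0.05. For Rrm1 it was -0.79 ± 0.37, adjusted p = 0.564. Its values of 6.37, 5.72, 9.73 and 9.64 CPM (WT saline), 6.24, 8.48, 13.1 and 10.7 CPM (WT insulin), 5.72, 6.30, 7.31 and 10.8 CPM (ERRα-/- saline) and 5.75, 4.64 and 5.64 CPM (ERRα-/- insulin) spread widely within groups, ERRα-/- insulin being the lowest. The call of Rrm1 was lost without WT saline 1 (-0.70) or 2 (-0.66), WT insulin 3 (-0.60) or 4 (-0.74), ERRα-/- saline 3 (-0.80) or 4 (-0.56) or ERRα-/- insulin 1 (-0.84), 2 (-0.70) or 4 (-0.83). Ccnd1 fell with insulin in both genotypes, and its interaction was not a DEG (-0.47 ± 0.38, adjusted p = 0.739). Not tested were Cdc6 (median 1, highest 13) and Gins2 (median 2, highest 17).

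**Figure D2:**
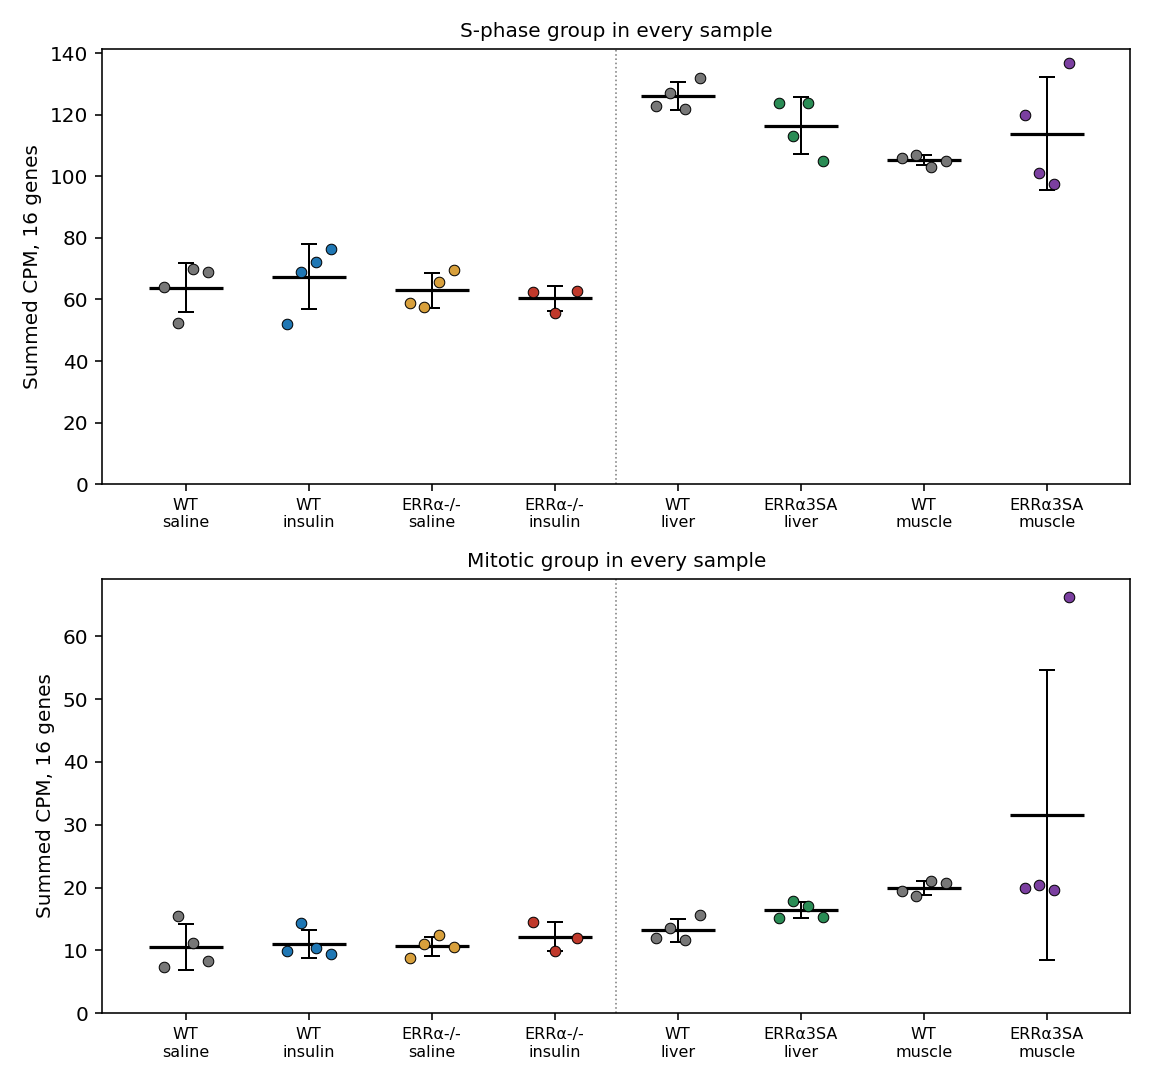
Summed CPM of the 16 S-phase genes and of the 16 mitotic genes in each of the 31 libraries, by group. Points are samples, lines group means and bars SD.

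The serine to alanine change in ERRα came with few DEGs in liver. Cdkn1a, Ccna2 and Ccnd1 were higher, and of 15 S-phase genes tested edgeR gave 0 at an unadjusted p under 0.05 and DESeq2 called 1 (Tk1). The DEGs were 3 of 31 genes tested (9.68%), all higher, beside 4.88% of all 13339 genes, 2.5% higher and 2.38% lower. The share was above that of all genes but rests on 3 genes. None had an adjusted p under 0.05 in edgeR (0% of all genes), 3 had an unadjusted p under 0.05, and DESeq2 gave 1 with an adjusted p under 0.05 (Cdkn1a, 0.0339). The medians were 0.10 and, for all genes, 0.00.

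Cdkn1a stood at 11.9, 9.78, 4.93 and 13.6 CPM in WT littermate and 17.6, 16.9, 24.8 and 25.0 CPM in ERRα3SA livers, and all ERRα3SA values were higher (2.10-fold, 1.07 ± 0.27, adjusted p = 0.528). Ccnd1 stood at 13.7, 11.6, 16.8 and 14.7 against 16.7, 17.5, 15.8 and 23.8 CPM, overlapping through WT littermate liver 3 (0.38 ± 0.15, adjusted p = 0.639). Ccna2 stood at 0.383, 0.475, 0 and 0.669 against 1.6, 1.04, 0.980 and 0.914 CPM, higher without overlap and at 0 in 1 WT littermate liver (1.56 ± 0.56, adjusted p = 0.629). The Cdkn1a call held in every alternative fit (0.84 to 1.24) but not at an adjusted p under 0.05 in edgeR. That of Ccna2 was lost without ERRα3SA liver 1 (1.35), and with all groups in one fit (1.56). The call of Ccnd1 was lost without WT littermate liver 1 (0.36), 2 (0.29) or 4 (0.40) or ERRα3SA liver 4 (0.23), and with all groups in one fit (0.38).

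Other liver values gave no DEG. Mcm2 stood at 3.54, 4.60, 4.03 and 4.55 CPM (WT littermate) and 4.33, 4.20, 5.29 and 4.67 CPM (ERRα3SA), and Pcna at 28.1, 28.3, 26.7 and 29.1 against 27.2, 22.5, 29.7 and 24.8 CPM. Mki67 stood at 1.37, 2.18, 1.29 and 1.56 against 1.6, 1.93, 2.69 and 2.26 CPM, Cdk1 at 1.12, 0.871, 0.686 and 1.16 against 1.08, 0.991, 0.882 and 1.15 CPM, and Top2a at 1.53, 1.90, 0.985 and 1.78 against 1.13, 2.41, 2.01 and 2.69 CPM. In all 5 genes the groups overlapped. The mitotic sums were 12.0, 13.5, 11.7 and 15.7 CPM and 15.2, 17.8, 17.1 and 15.4 CPM, and the S-phase sums 123, 127, 122 and 132 CPM and 124, 113, 124 and 105 CPM. Of 12 mitotic genes tested 11 lay above zero (median 0.34), and of 15 S-phase genes 6 (median -0.04). Without Tpx2, Ube2c and Aurka, a sum taken after the values were seen, the mitotic sums did not overlap. They were 7.94, 9.55, 8.01 and 10.7 CPM (WT littermate) and 11.1, 12.7, 12.6 and 11.0 CPM (ERRα3SA). These differences of medians and sums were not tested. Not tested were Cdc6 (median 4.5, highest 8), Ccnb1 (median 8.5, highest 15), Plk1 (median 7, highest 13), Bub1 (median 2.5, highest 7), Foxm1 (median 9.5, highest 30) and Ccne1 (median 6.5, highest 17).

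In muscle, the difference between ERRα3SA and WT depended in part on one library. ERRα3SA muscle 4 had high values of S-phase and, above all, mitotic genes. Among the other ERRα3SA muscles, values outside the WT range included Mki67 and Rrm1 in sample 1 (4.05 and 61.8 CPM, WT at most 1.70 and 44.3 CPM) and Aurka in samples 2 and 3 (10.9 and 10.4 CPM, WT at most 8.89 CPM). Further ones were Cdc20 in samples 1 and 2 (0.956 and 0.627 CPM, WT at most 0.306 CPM) and Tpx2 in samples 1 to 3 (5.17, 3.83 and 4.56 CPM, WT at least 5.49 CPM). By the DEG rule 4 of 26 genes tested were higher (15.4%) and none lower, beside 4.54% of all 14081 genes, 2.78% higher and 1.75% lower. None had an adjusted p under 0.05 in edgeR (0% of all genes), 4 had an unadjusted p under 0.05, and DESeq2 gave 0 with an adjusted p under 0.05. DESeq2 called Mcm5, Ccna2, Mki67 and Tpx2, the last not called by edgeR, and gave no p-value for Top2a. The medians were 0.22 and, for all genes, 0.02. Without ERRα3SA muscle 4 there was 1 DEG, and without ERRα3SA muscle 1 and 4 together, an alternative chosen after the data were seen, 3. The low-count filter left 9 of 16 mitotic genes untested. Without that filter, and with all groups in one fit, there were many more DEGs, with counts given under the processing.

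Cdkn1a stood at 15.9, 22.5, 20.5 and 17.1 CPM in WT and 9.0, 15.3, 20.4 and 39.0 CPM in ERRα3SA muscle, and Ccnd1 at 6.75, 5.02, 4.96 and 5.69 against 6.07, 3.93, 5.37 and 7.70 CPM. Both overlapped and neither was a DEG. The helicase gene Mcm5 stood at 0.632, 0.948, 0.909 and 0.573 against 0.619, 1.32, 1.00 and 4.41 CPM, clearly high in ERRα3SA muscle 4 alone (1.32 ± 0.58, adjusted p = 1.000). Mcm2 stood at 10.5, 9.88, 9.32 and 9.93 against 10.1, 8.78, 8.44 and 10.9 CPM. Pcna stood at 16.2, 16.9, 16.4 and 16.1 against 16.3, 16, 15.0 and 22.9 CPM. Apart from ERRα3SA muscle 4 their values overlapped, and neither was a DEG.

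Top2a stood at 0.632, 0.474, 0.682 and 0.611 CPM in WT and 0.900, 0.693, 0.550 and 9.68 CPM in ERRα3SA muscle. Mki67 stood at 0.703, 1.11, 1.70 and 0.688 against 4.05, 0.991, 0.809 and 9.17 CPM, and Ccna2 (few counts in WT) at 0.141, 0.237, 0.455 and 0.458 against 0.562, 0.264, 0.518 and 3.45 CPM. ERRα3SA muscle 4 was far above all others in each, ERRα3SA muscle 1 was second in Mki67, and the rest overlapped. The log2 fold changes were 2.35 ± 0.93 for Top2a, 1.88 ± 0.75 for Mki67 and 1.95 ± 0.83 for Ccna2, with adjusted p = 1.000 each. Cdk1, not tested, stood at 0.141, 0.277, 0 and 0.344 against 0, 0.462, 0.0323 and 3.96 CPM, with a count of 124 in ERRα3SA muscle 4 against at most 14 elsewhere. Mitotic sums were 19.5, 18.6, 21.0 and 20.7 CPM and 20, 20.4, 19.6 and 66.2 CPM, and S-phase sums 106, 107, 103 and 105 CPM and 120.1, 101, 97.5 and 137 CPM.

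The 4 calls did not hold. The call of Top2a was lost without WT muscle 1 (2.39), 2 (2.26), 3 (2.42) or 4 (2.36) or ERRα3SA muscle 4 (0.25), and with the replicate block (1.24). That of Mki67 was lost without WT muscle 1 (1.73), 2 (1.91) or 4 (1.72) or ERRα3SA muscle 4 (0.86), and with the replicate block (1.30). For Ccna2 it was lost without WT muscle 1 (1.70), 2 (1.84), 3 (2.16) or 4 (2.16) or ERRα3SA muscle 4 (0.47), and with the replicate block (1.42). For Mcm5 it was lost without WT muscle 1 (1.24), 2 (1.44), 3 (1.41) or 4 (1.2) or ERRα3SA muscle 4 (0.41), and with the replicate block (0.92). Without ERRα3SA muscle 1 and 4, the values were 0.07 for Top2a, 0.30 for Ccna2, 0.62 for Mcm5 and -0.20 for Mki67, which reversed. The number of DEGs was 1 without WT muscle 1, 2 without WT muscle 2, 2 without WT muscle 3, 1 without WT muscle 4 and 8 without ERRα3SA muscle 1. Not tested were Gins2 (median 2, highest 29), Ccnb1 (median 2, highest 96), Ccnb2 (median 3, highest 89), Cdk1 (median 5.5, highest 124), Birc5 (median 6, highest 68), Aurkb (median 2, highest 43), Plk1 (median 3, highest 65), Bub1 (median 1.5, highest 40), Cdc20 (median 8, highest 81), Foxm1 (median 7.5, highest 65) and Ccne1 (median 6.5, highest 27).

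The library ERRα3SA muscle 4 was described by itself. It lay above all 7 other muscles in 15 of 16 mitotic genes (93.8%), 13 of 16 S-phase genes (81.2%) and 4 of 5 G1 genes (80%), all but Tpx2, Gins1, Rrm1, Tk1 and Ccne2. Its ratio to the median of the others had a median of 10.1 over mitotic, 1.92 over S-phase and 2.28 over G1 genes, against 0.958 over all genes tested in muscle. The cycle genes here include those with too few counts to be tested, 9 of the 16 mitotic ones, and the genes behind 0.958 do not. Ccnb1 had the highest ratio (40.5; 96 counts against at most 6), followed by Ccnb2 (28.7; 89 against at most 5) and Cdk1 (28.2). Top2a had a ratio of 15.3 (303 counts against at most 21), Birc5 11.0, Mki67 9.26, Cdkn1a 2.28 and Pcna 1.42. Marker sums in the same library were also high for macrophages (WT 24.7, 24.2, 33.3 and 29.2 CPM, ERRα3SA 30.1, 24.3, 26.2 and 78.7 CPM) and neutrophils (WT 0.141, 1.98, 0.0758 and 0.0764 CPM, ERRα3SA 0.337, 0.264, 0.162 and 8.47 CPM). Of the 5 neutrophil genes, Ly6g, Mpo and Elane were at 0 in every ERRα3SA muscle. The neutrophil sum there came from S100a8 and S100a9 only, and none of the 5 was tested in muscle. Fibroblast sums (WT 2031, 1619, 1419 and 1897 CPM, ERRα3SA 1776, 1488, 1272 and 3441 CPM) and satellite cell sums (WT 31.1, 36.9, 25.6 and 28.6 CPM, ERRα3SA 26.9, 29.5, 27.2 and 44.8 CPM) were likewise highest there, while its muscle fibre sum was the lowest. Myod1 made up most of the satellite cell sums (mean 22.7 CPM in WT and 24.8 CPM in ERRα3SA). Between the groups 2 of the 4 satellite cell genes lay above zero. Another of them, Myf5, was lower in ERRα3SA by the DEG rule (-0.50), not past adjustment. The part of these cells in the result was not tested.

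**Figure D3:**
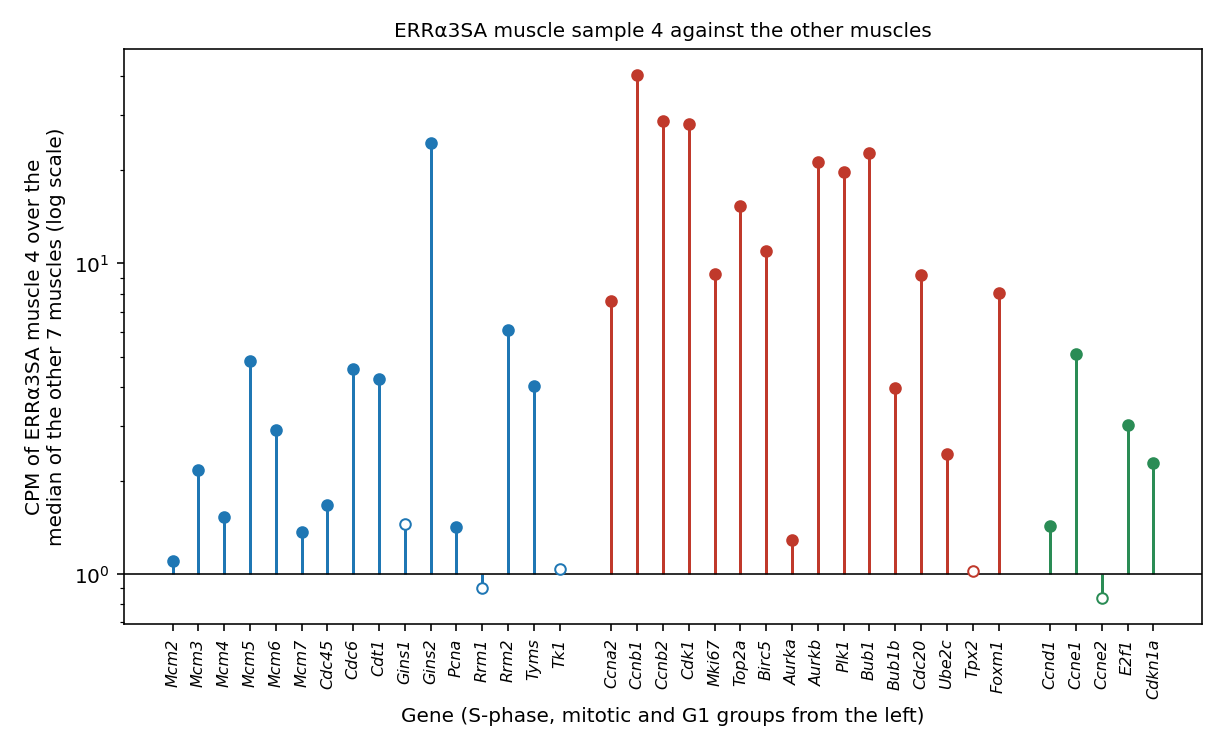
Ratio of CPM in ERRα3SA muscle 4 to the median of the 7 other muscle libraries for each of the 37 genes, log scale. Filled points lie above all 7 other libraries.

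Muscle was compared with liver in WT littermates. Whether liver and muscle of the same number came from one mouse is not stated, and they were fitted as independent samples. Liver had more RNA of most S-phase genes, of Ccnd1 and of E2f1, whereas muscle had more Rrm1, Mcm2, Cdc45, Ccne2, Tpx2, Aurka, Ube2c and Cdkn1a. DEGs were 22 of 26 genes tested (84.6%), near the background of 84.2% of all 14886 genes, so their number is not a result about cycle genes. They were 8 higher in muscle (42.0% of all genes) and 14 lower (42.2%), and all 22 had an adjusted p under 0.05 (86.5% of all genes). The medians were -0.74 and, for all genes, 0.00. Of 14 S-phase genes tested 10 were lower and 3 higher (median -0.85), and the difference of these medians from that of all genes was not tested.

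The G1 gene Ccne2 stood at 1.44, 1.58, 1.2 and 0.714 CPM in liver and 5.59, 6.16, 7.08 and 6.76 CPM in muscle (2.38 ± 0.20, adjusted p = 6.10e-08), Ccnd1 at 13.7, 11.6, 16.8 and 14.7 against 6.75, 5.02, 4.96 and 5.69 CPM (-1.31 ± 0.13, adjusted p = 5.20e-07), and Cdkn1a at 11.9, 9.78, 4.93 and 13.6 against 15.9, 22.5, 20.5 and 17.1 CPM (0.94 ± 0.22, adjusted p = 0.00131). None of the 3 overlapped. Tpx2, which targets the kinase Aurka to the spindle, stood at 0.670, 0.594, 0.557 and 0.268 against 6.53, 5.49, 7.05 and 6.42 CPM, every muscle far above every liver (3.60 ± 0.22, adjusted p = 1.29e-09). Summed over the 16 mitotic genes, liver had 12.0, 13.5, 11.7 and 15.7 CPM and muscle 19.5, 18.6, 21.0 and 20.7 CPM. The higher sum in muscle came from Tpx2, Ube2c and Aurka, and over the other 13, a sum taken after the values were seen, liver had 7.94, 9.55, 8.01 and 10.7 CPM and muscle 3.79, 3.00, 5.0 and 4.24 CPM.

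Rrm1 stood at 12.5, 12.1, 12.1 and 14.3 CPM in liver and 44.3, 43.8, 40.2 and 41.8 CPM in muscle (1.78 ± 0.07, adjusted p = 1.66e-11), and Tyms at 7.02, 7.80, 7.24 and 7.36 against 0.878, 0.316, 0.417 and 0.458 CPM (-3.76 ± 0.23, adjusted p = 1.24e-09). Tk1 stood at 20.3, 20.7, 24.3 and 19.0 against 7.73, 9.05, 7.31 and 7.95 CPM (-1.36 ± 0.10, adjusted p = 1.30e-08), and Pcna at 28.1, 28.3, 26.7 and 29.1 against 16.2, 16.9, 16.4 and 16.1 CPM (-0.74 ± 0.06, adjusted p = 7.63e-08). Mcm2 stood at 3.54, 4.60, 4.03 and 4.55 against 10.5, 9.88, 9.32 and 9.93 CPM (1.28 ± 0.11, adjusted p = 1.04e-07), and Cdt1 at 2.94, 3.49, 3.30 and 3.03 against 0.562, 0.593, 0.644 and 0.267 CPM (-2.58 ± 0.24, adjusted p = 1.74e-07). In none of the 6 did liver and muscle overlap, with Rrm1 and Mcm2 high in muscle and the others in liver.

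Further DEGs are given as liver against muscle values with log2 fold change and SE. Of the helicase genes, Mcm3 stood at 5.77, 6.73, 4.24 and 6.16 against 3.48, 2.80, 2.65 and 3.40 CPM (-0.86 ± 0.17), Mcm5 at 2.90, 3.17, 2.44 and 4.06 against 0.632, 0.948, 0.909 and 0.573 CPM (-2.0 ± 0.24), Mcm6 at 5.81, 5.43, 5.40 and 6.42 against 2.56, 3.75, 3.11 and 4.16 CPM (-0.73 ± 0.16) and Mcm7 at 16.2, 17.5, 18.3 and 19.6 against 8.22, 9.24, 11.4 and 10.1 CPM (-0.84 ± 0.10). Gins1 stood at 4.79, 3.64, 4.41 and 4.46 against 1.12, 1.19, 1.33 and 0.955 CPM (-1.88 ± 0.18), Rrm2 at 4.34, 3.76, 3.81 and 5.49 against 0.668, 0.395, 0.682 and 1.18 CPM (-2.53 ± 0.26) and Cdc45 at 1.37, 2.26, 0.814 and 0.758 against 3.27, 2.17, 2.12 and 1.99 CPM (0.89 ± 0.31). Liver was above muscle without overlap in all of these but Cdc45, which was higher in muscle with overlap.

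The kinase gene Aurka stood at 2.90, 2.81, 2.70 and 4.10 against 8.19, 8.89, 7.73 and 8.86 CPM (1.47 ± 0.14), the ubiquitin ligase partner gene Ube2c at 0.479, 0.555, 0.386 and 0.624 against 0.949, 1.22, 1.25 and 1.22 CPM (1.21 ± 0.26), Cdk1 at 1.12, 0.871, 0.686 and 1.16 against 0.141, 0.277, 0 and 0.344 CPM (-2.29 ± 0.49) and Top2a at 1.53, 1.90, 0.985 and 1.78 against 0.632, 0.474, 0.682 and 0.611 CPM (-1.33 ± 0.27). E2f1 stood at 3.89, 4.56, 3.08 and 5.0 against 0.738, 0.514, 0.871 and 0.344 CPM (-2.69 ± 0.26). Aurka and Ube2c were higher in muscle and the other 3 in liver, none with overlap. Not DEGs were Mcm4 (-0.07 ± 0.13), Ccna2 (-0.21 ± 0.61), Mki67 (-0.57 ± 0.31) and Bub1b (-0.47 ± 0.37). The number of DEGs was 22 to 26 with one sample left out, and the 8 genes first by p (Rrm1, Tyms, Tpx2, Tk1, Ccne2, Pcna, Mcm2 and Cdt1) were called in every alternative. Not tested were Cdc6 (median 5, highest 20), Gins2 (median 4, highest 23), Ccnb1 (median 5, highest 15), Ccnb2 (median 7, highest 17), Birc5 (median 9, highest 14), Aurkb (median 7.5, highest 14), Plk1 (median 5, highest 13), Bub1 (median 2, highest 5), Cdc20 (median 10.5, highest 30), Foxm1 (median 8.5, highest 12) and Ccne1 (median 6, highest 17).

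**Figure D4:**
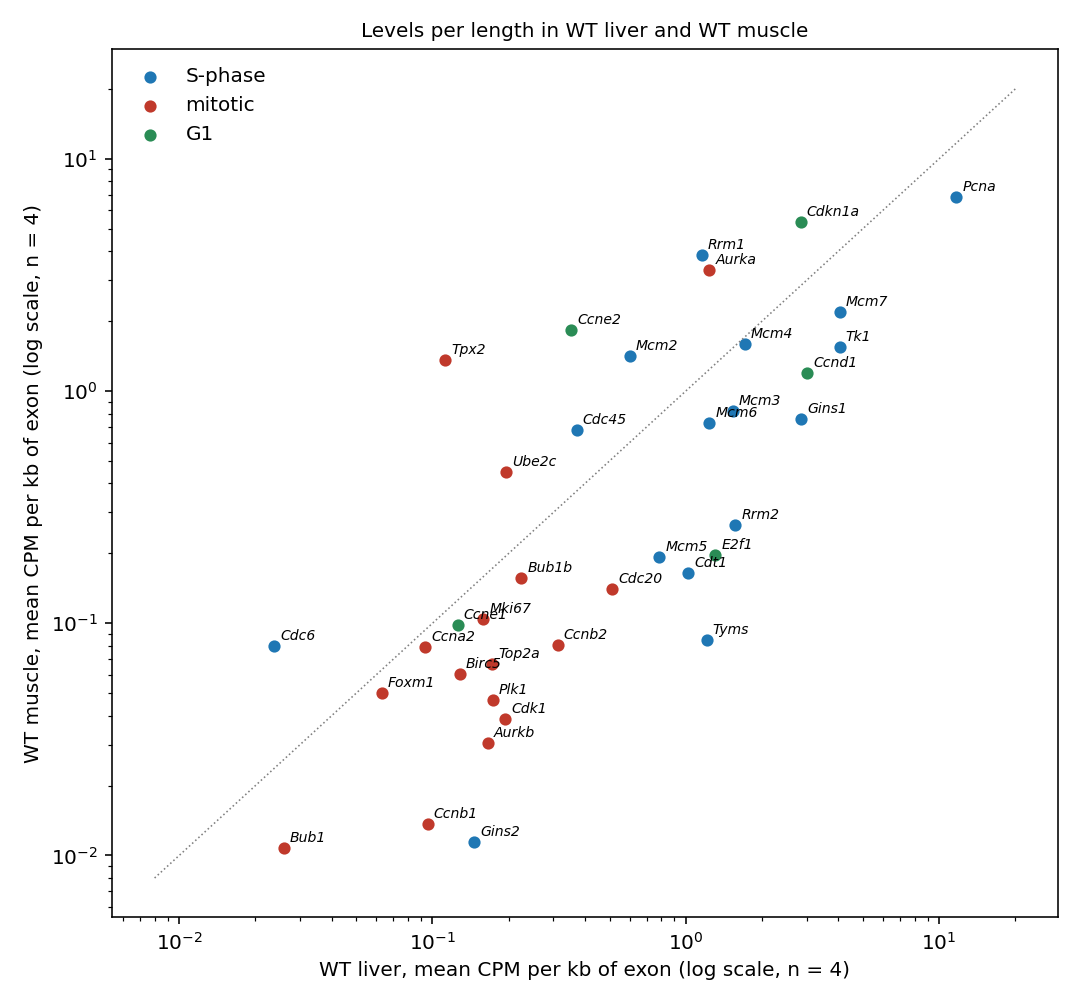
Mean CPM per kb of each of the 37 genes in WT littermate liver and WT muscle, log axes. The dotted line marks equal levels.

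The ERRα3SA difference was compared between tissues by an interaction. Of its 3 calls, those of Ccnb1 and Gins2 were lost without ERRα3SA muscle 4, and that of Tpx2 was not. The DEGs were 3 of 34 genes tested (8.82%), 2 higher in muscle relative to liver (3.16% of all genes) and 1 lower (2.41%), beside 5.57% of all 15688 genes, so the share rests on 3 genes. None had an adjusted p under 0.05 in edgeR (0% of all genes), 3 had an unadjusted p under 0.05, and DESeq2 gave 0 with an adjusted p under 0.05 and called 4, adding Cdc20. The medians were 0.38 and, for all genes, 0.00. The samples are those of both ERRα3SA comparisons and of the tissue comparison.

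Gins2 (few counts in muscle) stood at 0.670, 0.475, 0.214 and 1.03 CPM in WT littermate liver, 0.517, 0.944, 0.637 and 0.529 CPM in ERRα3SA liver, 0.0351, 0, 0.0379 and 0.115 CPM in WT muscle and 0, 0.165, 0.291 and 0.927 CPM in ERRα3SA muscle. Cyclin B1 (Ccnb1, few counts in all 4 groups) stood at 0.287, 0.317, 0.343 and 0.669, then 0.282, 0.708, 0.637 and 0.144, then 0, 0.0790, 0.0758 and 0.0764 and then 0, 0.0660, 0.194 and 3.07 CPM in the same order. Both were high in ERRα3SA muscle 4 and near the floor in the other muscles. Tpx2 stood at 0.659, 0.660, 0.539 and 0.914 CPM in ERRα3SA liver and 5.17, 3.83, 4.56 and 5.62 CPM in ERRα3SA muscle, overlapping with the WT values of each tissue. Interactions were 2.70 ± 1.1, adjusted p = 0.854 (Gins2), 3.67 ± 1.61, adjusted p = 0.867 (Ccnb1) and -0.80 ± 0.34, adjusted p = 0.855 (Tpx2). For genes so near 0 the first pair may depend on the prior count, which was not varied.

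The call of Gins2 was lost without WT littermate liver 4 (2.32), WT muscle 1 (2.57), 2 (2.33) or 3 (2.66) or ERRα3SA muscle 4 (1.62). That of Tpx2 was lost without WT littermate liver 4 (-0.60), ERRα3SA liver 4 (-0.61), WT muscle 3 (-0.70) or 4 (-0.75) or ERRα3SA muscle 2 (-0.70), and without a low-count filter (-0.76). For Ccnb1 it was lost without WT littermate liver 4 (3.32), ERRα3SA liver 1 (3.5) or 4 (3.42), WT muscle 1 (3.25) or ERRα3SA muscle 4 (0.60), and with the replicate block (2.72), and without ERRα3SA muscle 1 and 4 together (0.98), where Gins2 (2.02) and Tpx2 (-0.99) kept theirs. The number of DEGs was 5 without WT littermate liver 1, 1 without WT littermate liver 4, 1 without ERRα3SA liver 4 and 1 without WT muscle 3. It was 9 without ERRα3SA muscle 1, 7 without ERRα3SA muscle 2, 11 without ERRα3SA muscle 3 and 5 without ERRα3SA muscle 1 and 4. Not tested were Cdc6 (median 5.5, highest 33), Plk1 (median 5.5, highest 65) and Bub1 (median 2, highest 40).

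**Figure D5:**
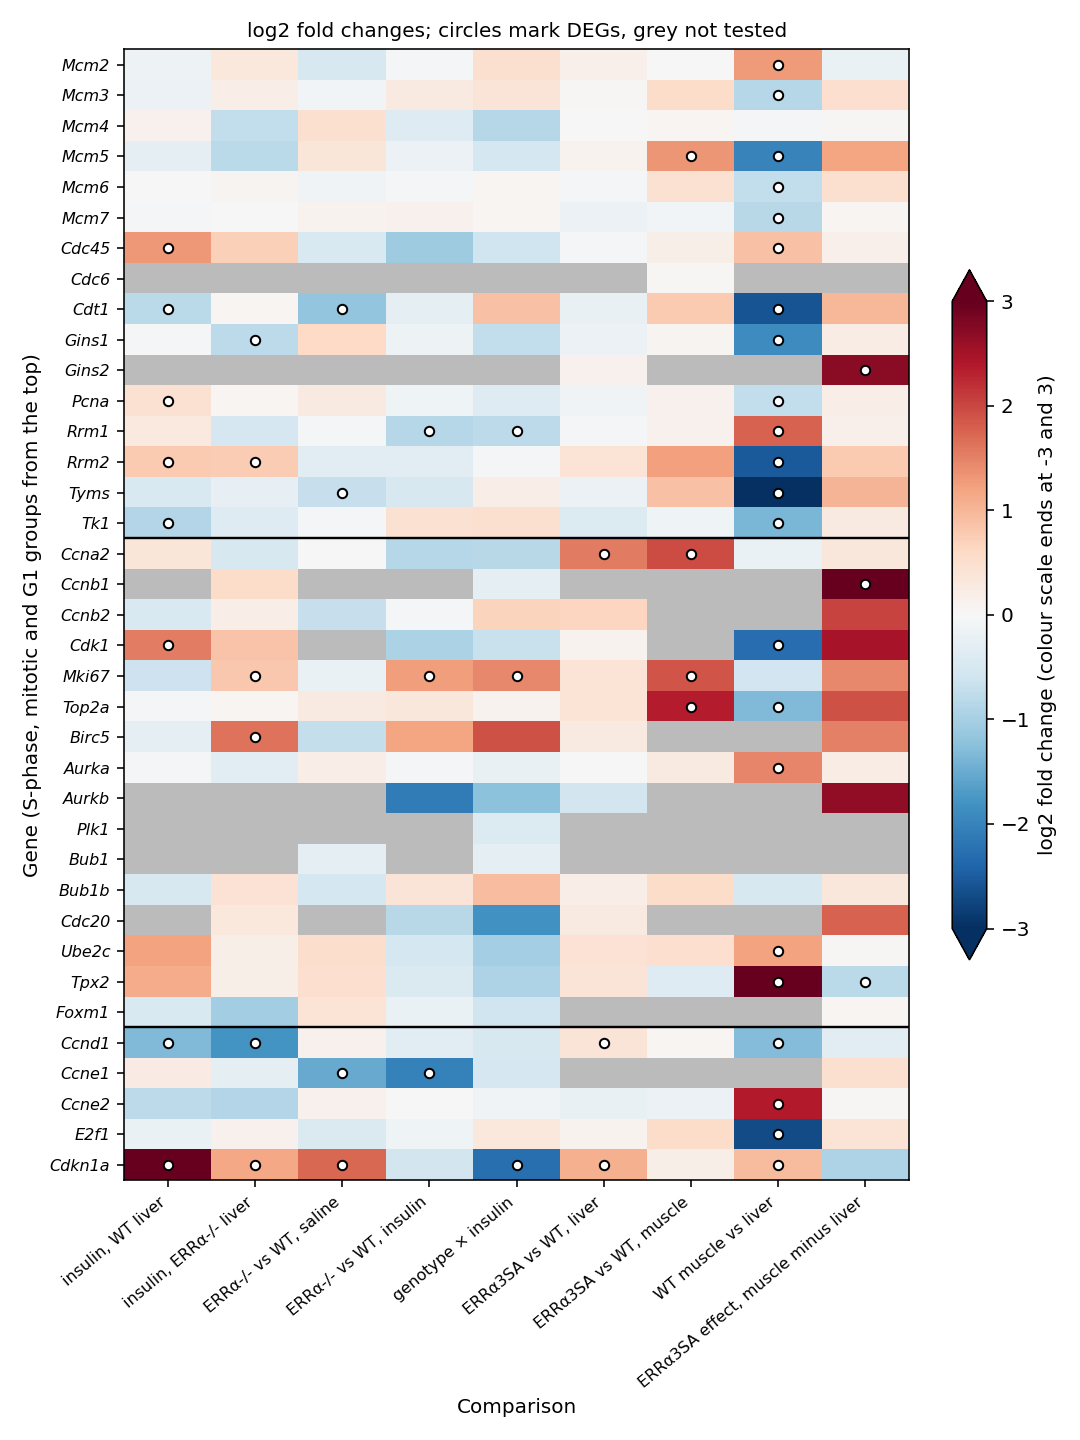
Log2 fold changes of the 37 genes in the 9 comparisons. Circles mark DEGs and grey cells genes not tested. The color scale ends at -3 and 3.

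Other genes of the same processes were counted by list, with the share of DEGs among those tested and the median in parentheses. The shares for all genes were 17.2% for insulin in either genotype, 11.3% and 9.99% for loss of ERRα under saline and insulin, 4.88% and 4.54% for ERRα3SA in liver and muscle, 84.2% for muscle against liver, and 8.79% and 5.57% for the interactions. None of the list shares was tested against them, and a share close to that of all genes is no finding about a list. Of 42 other replication genes, those tested and the DEGs were 36 with 2 higher and 4 lower for insulin in WT liver (16.7%, median log2 fold change -0.09), and 36 with 1 and 6 for insulin in ERRα-/- liver (19.4%, -0.17). Loss of ERRα gave 36 with 0 and 2 under saline (5.56%, -0.02) and 36 with 0 and 2 under insulin (5.56%, -0.09). ERRα3SA gave 38 with 0 and 1 in liver (2.63%, -0.06) and 36 with 0 and 0 in muscle (0%, 0.12), where edgeR gave 0 at an unadjusted p under 0.05 and DESeq2 called 0. Muscle against liver gave 39 with 11 and 21 (82.1%, -0.63). The interactions gave 38 with 0 and 2 for insulin (5.26%, 0.01) and 41 with 2 and 0 for ERRα3SA (4.88%, 0.16). Called first were Rfc1 -0.54 (adjusted p = 0.0348) and Chaf1b 2.47 (adjusted p = 0.0604) for insulin in WT, Chaf1b 1.69 (adjusted p = 0.0395) for insulin in ERRα-/-, and Dbf4 -1.45 (adjusted p = 0.173) for ERRα-/- under insulin, as log2 fold changes. Mcm10 stood at 89.4, 129.6, 73.8 and 107 CPM in WT littermate liver and 0.211, 0.0790, 0.0379 and 0.115 CPM in WT muscle.

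Of 44 other mitosis genes, 32 were tested with 0 higher and 1 lower for insulin in WT liver (3.12%, median 0.04), and 33 with 2 and 2 in ERRα-/- liver (12.1%, -0.02). Loss of ERRα gave 34 with 0 and 1 under saline (2.94%, -0.21) and 32 with 1 and 4 under insulin (15.6%, -0.33). ERRα3SA gave 31 with 2 and 1 in liver (9.68%, 0.08) and 23 with 0 and 0 in muscle (0%, 0.29). Muscle against liver gave 28 with 6 and 13 (67.9%, -0.37), and the interactions 39 with 2 and 1 for insulin (7.69%, -0.05) and 36 with 0 and 0 for ERRα3SA (0%, 0.45). Examples were Ect2 1.59 (adjusted p = 0.343) and Cenpa -1.32 (adjusted p = 0.356) for ERRα-/- under insulin and Anln 1.13 (adjusted p = 0.563) for ERRα3SA liver. For the pair of lists of 0 DEGs here, edgeR gave 0 genes at an unadjusted p under 0.05, and DESeq2 called 1 (Prc1) in ERRα3SA muscle and 2 (Hmmr and Ect2) in the ERRα3SA interaction.

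Of 29 other G1 regulators, 27 were tested with 2 higher and 5 lower for insulin in WT liver (25.9%, median -0.03), and 28 with 5 and 4 in ERRα-/- liver (32.1%, -0.08). Loss of ERRα gave 26 with 0 and 3 (11.5%, -0.14) and 27 with 0 and 3 (11.1%, -0.16). ERRα3SA gave 25 with 1 and 0 in liver (4.0%, 0.04) and 25 with 0 and 0 in muscle (0%, 0.05; edgeR 0 at an unadjusted p under 0.05, DESeq2 0 called), muscle against liver 26 with 14 and 7 (80.8%, 0.67), and the interactions 28 with 0 and 2 (7.14%, -0.06) and 26 with 0 and 1 (3.85%, -0.01). The cyclin G2 gene rose with insulin in both genotypes (Ccng2, 1.36 with adjusted p = 0.0374 in WT and 1.21 with adjusted p = 0.00443 in ERRα-/-), and Lin9 was lower in both (-1.48, adjusted p = 0.0451 in WT and -1.51, adjusted p = 0.118 in ERRα-/-). Ccng1, also a p53 target, was far higher in muscle than in liver (log2 fold change 4.65).

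Of 21 p53 targets other than Cdkn1a, 20 were tested with 6 higher and 1 lower for insulin in WT liver (35.0%, median 0.32), and 20 with 3 and 2 in ERRα-/- liver (25.0%, 0.21). Loss of ERRα gave 20 with 7 and 1 under saline (40%, 0.13) and 20 with 3 and 1 under insulin (20%, 0.03). ERRα3SA gave 20 with 1 and 0 in liver (5.0%, 0.16) and 20 with 1 and 0 in muscle (5.0%, 0.04), muscle against liver 21 with 10 and 8 (85.7%, 0.36), and the interactions 21 with 2 and 2 (19.0%, -0.36) and 21 with 0 and 0 (0%, -0.09; edgeR 0 at an unadjusted p under 0.05, DESeq2 called Gadd45b). Insulin gave Ddit4 2.79 (adjusted p = 0.0820), Phlda3 2.19 (adjusted p = 0.109) and Sesn1 0.79 (adjusted p = 0.117) in WT livers. In ERRα-/- livers it gave Sesn1 1.71 (adjusted p = 0.00502), Fas -0.87 (adjusted p = 0.0172), Ccng1 -0.72 (adjusted p = 0.0172), Ddit4 2.32 (adjusted p = 0.0190) and Sesn2 1.33 (adjusted p = 0.0240). These 5 had an adjusted p under 0.05 in edgeR, beside 2.91% of all genes, and none had in WT. Ccng1 was also lower with insulin in WT livers (-0.31, adjusted p = 0.201). Sums were 504, 579, 626 and 535 CPM (WT saline), 1299, 957, 591 and 632 CPM (WT insulin), 877, 574, 832 and 688 CPM (ERRα-/- saline) and 776, 1502 and 886 CPM (ERRα-/- insulin), with Trp53inp1 most abundant.

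Of 16 early growth genes, 13 were tested with 3 higher and 0 lower for insulin in WT liver (23.1%, median 0.49), and 13 with 1 and 1 in ERRα-/- liver (15.4%, 0.22). Loss of ERRα gave 13 with 7 and 0 under saline (53.8%, 0.57) and 14 with 4 and 0 under insulin (28.6%, 0.16). ERRα3SA gave 12 with 0 and 1 in liver (8.33%, -0.04) and 16 with 1 and 0 in muscle (6.25%, 0.52), muscle against liver 15 with 9 and 3 (80%, 1.6), and the interactions 14 with 0 and 2 (14.3%, -0.37) and 16 with 1 and 0 (6.25%, 0.60). Raised by insulin in WT were Klf6 (0.96, adjusted p = 0.0179), Fosl2 (1.11, adjusted p = 0.0196) and Fos (2.27, adjusted p = 0.0343). Saline-treated ERRα-/- livers had more Junb (1.73, adjusted p = 0.161) and Fos (2.31, adjusted p = 0.189) RNA by the DEG rule only.

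Cell marker sums were compared in the insulin experiment. The 6 macrophage genes (Clec4f most abundant) summed to 127, 252, 166 and 180.2 CPM in WT saline, 185, 178, 113 and 148 CPM in WT insulin, 132, 130.4, 133 and 149 CPM in ERRα-/- saline and 122, 153 and 191 CPM in ERRα-/- insulin livers. Behind the overlapping sums, 3 of the 6 were lower in ERRα-/- than in WT livers under saline by the DEG rule (Adgre1 -0.76, Csf1r -0.59 and Vsig4 -0.39, none past adjustment) and none was above zero (median -0.48), beside 11.3% of all genes. The 5 endothelial genes summed to 121, 221, 179 and 176, then 150.3, 108, 166 and 167, then 158, 152, 146 and 147 and then 167, 153 and 157 CPM in that order of groups. The 6 erythroid genes (Hbb-bs) summed to 166, 437, 254 and 251, then 346, 359.6, 259 and 223, then 258, 242, 146 and 174 and then 235, 436 and 172 CPM. WT saline 2, the saline liver with the highest Mki67, Top2a and Ccna2, also had the highest macrophage, endothelial and erythroid sums of its group.

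Sums of the other lists follow. The 5 neutrophil genes (S100a9) summed to 0.466, 2.06, 0.343 and 0.647, then 3.64, 1.62, 1.46 and 3.98, then 3.96, 0.170, 1.44 and 2.44 and then 1.59, 0.933 and 0.624 CPM in the same order, with Ly6g at 0 in all but WT saline. Of 2 tested for insulin in WT liver, S100a8 was higher by the DEG rule (2.44, adjusted p = 0.265 in edgeR), and DESeq2 also called S100a9. The 5 T cell genes (Cd4) summed to 1.63, 1.87, 0.80 and 1.06, then 1.73, 1.73, 0.430 and 1.16, then 3.44, 2.04, 2.48 and 2.26 and then 2.78, 2.5 and 2.58 CPM. Every ERRα-/- sum lay above every WT sum. The difference was mostly that of Cd4, whose means were 0.778, 0.592, 1.85 and 2.01 CPM within mean sums of 1.34, 1.26, 2.55 and 2.62 CPM. Cd8a was lower with insulin in ERRα-/- livers by the DEG rule (-2.89, adjusted p = 0.248 in edgeR). By the DEG rule Cd4 was higher in ERRα-/- than in WT livers under saline (1.25, 1 T cell gene tested) and insulin (1.75, 2 tested), neither past adjustment. The 5 B and plasma cell genes (Jchain) summed to 0.803, 3.08, 1.96 and 3.19, then 1.27, 4.08, 1.48 and 2.23, then 2.83, 1.84, 4.07 and 2.66 and then 2.03, 2.85 and 1.98 CPM. The 5 stellate cell and fibroblast genes (Dcn) summed to 124, 147, 119.8 and 134, then 130.5, 141, 134 and 113, then 121, 129, 154 and 143 and then 159, 132 and 130.2 CPM. Dcn dominated these sums, and 2 of the 5 were lower with insulin in WT liver, Lrat (-0.88, adjusted p = 0.0339) and Col3a1 (-0.68, adjusted p = 0.254), with a median of -0.54. The 4 cholangiocyte genes (Sox9) had means of 7.10, 7.38, 6.56 and 8.36 CPM, and the 4 satellite cell genes were at 0 in every liver. The part of these cells in the result was not tested.

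In the ERRα3SA experiment, WT littermate and ERRα3SA livers had macrophage sums of 216, 239.6, 245 and 236 against 269.8, 273, 242 and 315 CPM, and cholangiocyte sums of 12.6, 9.82, 12.1 and 14.5 against 12.7, 8.77, 10.6 and 14.4 CPM, with 3 of 4 cholangiocyte genes (Krt19, Krt7 and Epcam) lower in ERRα3SA liver by the DEG rule (median -1.02), none past adjustment, and the most abundant, Sox9, not called and above WT in the mean (7.07 against 9.14 CPM). Their erythroid sums were 402, 408, 349 and 335 against 375, 257, 415 and 267 CPM, and their endothelial sums 137, 166, 150.0 and 162 against 166, 162, 177 and 173 CPM. WT and ERRα3SA muscle had erythroid sums of 89.0, 114, 79.9 and 73.9 against 82.4, 73.4, 98.9 and 149 CPM and endothelial sums of 231, 219, 246 and 227 against 296, 223, 207 and 213 CPM. Clec4f was at 0 in both muscle groups. The part of these cells in the result was not tested.

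In no comparison of genotype or insulin were most S-phase or mitotic genes tested DEGs. In edgeR, insulin differences past adjustment over all genes were those of Cdkn1a and Ccnd1 in WT livers and of Ccnd1 in ERRα-/- livers, and otherwise only muscle against liver had any. DESeq2 added Birc5 for insulin in ERRα-/- livers, Cdt1 and, with insulin, Ccne1 and Mki67 for loss of ERRα, and Cdkn1a for ERRα3SA liver. High values of most S-phase and mitotic genes at once were seen in a single library, ERRα3SA muscle 4.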

How the data were processed

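Read counts per Ensembl gene were deposited by the authors, made with STAR 2.5 on the mm10 genome, without normalization and with no strand setting stated, for 31 libraries in 2 tables. Identifiers were mapped to symbols with GENCODE vM21. CPM (counts scaled to library size) used TMM-scaled library sizes within each table, and log2 fold changes came from edgeR 4.0.16 quasi-likelihood fits (R 4.3.3) of genes passing filterByExpr in the groups compared. DEGs differed 1.2-fold or more at an unadjusted p under 0.05, with p-values adjusted over all genes tested (Benjamini-Hochberg) given beside them. Interactions were contrasts of all 4 groups of a table. Depth ran from 35871419 to 48317108 and from 20481405 to 33412022 counts per library. The fits were also run on simulated data, the outcome of which is not given here.

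Alternatives were DESeq2 1.42.0, RLE size factors, no filter, all groups in one fit, the replicate number as a block, adjusted p as the rule, and each sample left out. Replicates were compared by chi-square over genes. The closest pair gave 6.30 per degree of freedom (ERRα3SA muscle 2 and 3, 15728 genes), and no pair was merged.

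Genes were named by rule. In each comparison, genes with an adjusted p under 0.05 and DEGs by p up to 8 were given with all values. Cdkn1a, Ccnd1, Mcm2, Pcna, Ccna2, Mki67, Cdk1 and Top2a were given in every group, untested genes with their counts, and other lists by up to 3 DEGs each per comparison. The 37 genes and the other lists were chosen with earlier results of these data known. Few counts meant a group median under 10. Promoters were RefSeq starts in GRCm38.p6.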

Additional observations from a re-analysis of the deposited data

Results flagged for a closer look

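Samples far from the rest of their group were sought for each gene in the groups of 4, by the gap to the nearest sample relative to the range. Of 259 tests, 34 found one (13.1%), where chance gives about 1 in 20. Outside ERRα3SA muscle there were 17 in 222 tests, and in ERRα3SA muscle 16 concerned high values of sample 4.

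In WT saline livers, Mcm2 was high in replicate 3 (3.45 CPM), Ube2c high in replicate 2 (0.825 CPM) and Ccnd1 low in replicate 4 (15.9 CPM). In WT insulin livers, replicate 1 was low in Mcm7 (7.36 CPM) and Rrm2 (3.29 CPM), and replicate 2 was high in Cdc6 (0.284 CPM) and Birc5 (1.22 CPM). In ERRα-/- saline livers, Gins2 was high in replicate 2 (0.0970 CPM). In WT littermate liver, replicate 3 was low in Mcm4 (4.93 CPM) and Cdc6 (0 CPM), and replicate 4 was high in Ccnb1 (0.669 CPM), Aurka (4.10 CPM) and Bub1 (0.223 CPM). In ERRα3SA liver, Tyms was low in replicate 4 (5.10 CPM). In WT muscle, replicate 1 was high in Cdc45 (3.27 CPM) and low in Ccnb1 (0 CPM) and Ube2c (0.949 CPM). Several of these values rest on few counts.

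ERRα3SA muscle 4 was high in the S-phase genes Mcm6 (9.04 CPM), Mcm7 (11.4 CPM), Cdc6 (1.05 CPM), Pcna (22.9 CPM) and Rrm2 (4.35 CPM). It was also high in the mitotic genes Ccna2 (3.45 CPM), Ccnb1 (3.07 CPM), Ccnb2 (2.84 CPM), Cdk1 (3.96 CPM), Top2a (9.68 CPM), Birc5 (2.17 CPM), Aurkb (1.37 CPM), Plk1 (2.08 CPM), Bub1 (1.28 CPM), Bub1b (2.46 CPM) and Foxm1 (2.08 CPM). Ccne2 was high in ERRα3SA muscle 1 (6.58 CPM). The cause was not tested.

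Effects differed between groups by an interaction test with an unadjusted p under 0.05 in 6 genes. For insulin in ERRα-/- against WT liver these were Rrm1 (-0.79), Mki67 (1.45) and Cdkn1a (-2.26), on the log2 scale. For ERRα3SA in muscle against liver they were Gins2 (2.70), Ccnb1 (3.67) and Tpx2 (-0.80). None had an adjusted p under 0.05 in edgeR, where 3 genes in each interaction had an unadjusted p under 0.05, and DESeq2 gave 0 with an adjusted p under 0.05 in either.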

How the results depend on the processing

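Over 42 named log2 fold changes and 582 alternative values, 478 kept their direction and their call, 103 kept their direction and lost the call, and 1 reversed, the cause of which was not tested. With all samples kept, 186 of 203 values kept the call, and with one sample left out 290 of 372.

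With an adjusted p under 0.05 as the rule, DEGs by edgeR fell from 8 to 2 (insulin, WT) and from 6 to 1 (insulin, ERRα-/-). They went from 4 to 0 (ERRα-/-, saline), from 3 to 0 (ERRα-/-, insulin), from 3 to 0 (insulin interaction), from 3 to 0 (ERRα3SA liver), from 4 to 0 (ERRα3SA muscle) and from 3 to 0 (ERRα3SA interaction). The main numbers are those at an unadjusted p under 0.05, and DESeq2 gave 1, 2, 0, 1, 0 and 0 with an adjusted p under 0.05 in these 6. A stricter rule keeps fewer genes. Without the filter more genes were tested, and there were 12 DEGs in ERRα3SA muscle and 6 in the ERRα3SA interaction, where Tpx2 lost its call (-0.76). With all groups in one fit there were 11 in ERRα3SA muscle. The causes of these changes were not tested. For Top2a in ERRα3SA muscle DESeq2 gave no p-value, so that alternative has no value for this call.

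With the replicate block, DEGs were 5 (insulin, WT), 2 (ERRα-/-, saline) and 0 by edgeR (ERRα3SA muscle), and the calls of single genes it ended are given in the report. It changed no other call. Deviations of same-numbered samples correlated at -0.218 to 0.333 between groups. With so few samples in a group this cannot settle whether the numbers pair the samples. Whether liver and muscle of the same number came from one mouse is not stated. The tissue comparison and the ERRα3SA interaction treated them as independent samples. The cause was not tested.

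Leaving out one sample gave 4 to 8 DEGs (insulin, WT), 4 to 8 (insulin, ERRα-/-), 3 to 4 (ERRα-/-, saline), 3 to 5 (ERRα-/-, insulin), 2 to 4 (insulin interaction), 2 to 4 (ERRα3SA liver), 1 to 8 (ERRα3SA muscle), 22 to 26 (muscle against liver) and 1 to 11 (ERRα3SA interaction). Without ERRα3SA muscle 1 and 4, chosen after seeing the data, the ERRα3SA interaction had 5 DEGs, and Mki67 in ERRα3SA muscle reversed to -0.20. The cause was not tested.

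Groups of 3 or 4 mice limit the tests, and genes with few counts, most of them mitotic, were often not tested. The floors of 0.0653 to 0.0851 CPM and 0.0957 to 0.169 CPM cover counting error only. Strandedness was not stated. A missed threshold does not show that values did not differ.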
